A study of Arabidopsis thaliana with 9 samples.

Results

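The 69 genes described here are encoded in the plastid genome of Arabidopsis thaliana. They were taken as every probe set of the array that its annotation lists with 1 gene and that the gene table places on the plastid chromosome. This gave 69 probe sets for 69 different genes, out of 22810 probe sets on the array, 22746 of them tested after the Affymetrix controls were left out. The gene table holds 78 different protein-coding plastid genes. A further 8 probe sets, listed with both copies of a gene in the inverted repeat, were not members.

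The study compared mature dry seeds, harvested fresh at the end of maturation, of 3 genotypes in the Landsberg erecta background. NILDOG1 is a near isogenic line in which the DOG1 region comes from the accession Cvi, with DOG1 expression labelled as strong. The dog1-1 mutant has DOG1 labelled as absent, and Ler is the wild type, with DOG1 labelled as low. Each genotype had 3 replicates, each a bulk of seeds from 8 plants and each on 1 array, so 9 arrays in all. DOG1 controls how deeply seeds are dormant. It has no probe set under its name here, so its own signal gives no check of the labels. A near isogenic line carries a stretch of Cvi chromosome around DOG1, and its effect cannot be told apart from that of DOG1 itself.

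Plastids keep a small genome of bacterial origin that encodes core subunits of the photosystems, the cytochrome b6f complex, the ATP synthase, the NDH complex and the plastid ribosome. It is read by a bacterial-type polymerase, whose core subunits are the rpo gene products, and by phage-type polymerases from the nucleus, and most genes are transcribed in groups and then cut into smaller RNAs. Arabidopsis embryos are green during seed filling, lose chlorophyll as they mature and dry, and rebuild active chloroplasts after germination. The labelling kit of this study primes on poly(A) tails, which most plastid transcripts lack in stable form, so the signals depend on how each RNA was primed as well as on its amount. In RNA from whole seeds, fewer plastids or cells of a type and less RNA per plastid cannot be told apart.

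All signals are log2 values normalized across the arrays, and all differences are log2 differences from the same fit of 9 arrays with limma, with Benjamini-Hochberg adjustment over the 22746 probe sets and a threshold of 0.05 on the adjusted p. Errors are standard errors (SE) unless named otherwise. The mean signals of the 69 probe sets ran from 2.62 for atpI to 11.02 for clpP, and a group mean at or below 2.56, the highest value of the TrpnX negative controls, was taken as background. The labels call the replicates biological. The p-values rest on the spread between bulks of the same genotype, pooled over the 3 genotypes and drawn by limma towards a value common to all probe sets. The 69 standard errors ran from 0.094 to 0.276 with a median of 0.168.

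Some array measures differed among the genotypes. The hybridization controls averaged 9.12 to 9.27 on NILDOG1 arrays, 8.81 to 9.14 on dog1-1 arrays and 9.19 to 9.57 on Ler arrays. The 3' minus 5' signal of the GAPDH control, a measure of RNA length in the labelled sample, was 1.23 to 1.36 in NILDOG1, 1.4 to 1.75 in dog1-1 and 0.835 to 1.11 in Ler, with no overlap. The same measure for ubiquitin was 1.14 to 1.25 in NILDOG1, 1.06 to 1.32 in dog1-1 and 1.14 to 1.25 in Ler. Control probe sets for 25S ribosomal RNA gave 8.04 on dog1-1 replicate 3 and 7.33 on Ler replicate 1, against 9.86 to 11.9 on the other arrays. Ler replicate 1 was the lowest Ler array for 47 of the 69 plastid genes and for 33.8% of all probe sets. Its mean over the plastid genes was 6.44, against 6.77 and 6.75 on the other Ler arrays. NILDOG1 replicate 2 was likewise the lowest array of its genotype for 46 of the 69, and for 29.1% of all probe sets. Of the mature seed markers, only PAP85, a storage protein, had a named probe set, and it lay between 13.4 and 13.6 on all 9 arrays. The part of these array measures in the results below was not tested, beyond the values given without single arrays.

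The comparison of dog1-1 with Ler asks which plastid transcripts differ in mature seeds that lack DOG1. In dog1-1, 13 plastid genes fell, among them petN, ndhG and ndhJ, each by more than 1 on the log2 scale, and 1 gene, psaJ, rose. The genes that fell encode 4 subunits of the NDH complex, 3 products tied to photosystem II, 3 ribosomal proteins, 1 subunit of cytochrome b6f, 1 photosystem assembly factor and 1 polymerase subunit. The other 55 genes did not pass the test, and none of the ATP synthase genes did.

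In counts, 14 of the 69 plastid genes passed the threshold in dog1-1 (20.3%), where 13.6% of all probe sets did. The 13 falls were 18.8% of the plastid genes, against 5.28% of all probe sets, and the single rise was 1.45%, against 8.33%. The median difference of the plastid genes was -0.19, against -0.04 over all probe sets, and 49 of the 69 differences were negative (71.0%, against 58.9% of all probe sets; 22 of the 69 on the hybridization control scale given below). For 21 genes all dog1-1 arrays lay below all Ler arrays and for 1 they lay above, where 26.9% of all probe sets had no overlap in either direction and 14.1% had none with dog1-1 lower. Without both arrays of low 25S RNA, 9 plastid genes passed, all lower, where 8.71% of all probe sets passed and 3.31% passed on the lower side. The genes whose calls were lost there were psbN, ndhF, ycf3, psbB, ndhE and psaJ. The deposited, already normalized values were also shifted on each array to level its hybridization controls. This scaling moved the median of all probe sets to 0.31 and that of the plastid genes to 0.16. Such scaling shifts all probe sets of an array alike, so the gap of 0.15 between these medians cannot change with it. On that scale 13 plastid genes passed (18.8%), where 22.7% of all probe sets did. They were 5 lower (petN, ndhG, ndhJ, psbB and psbN), against 1.43% of all probe sets, and 8 higher (psaJ, atpA, atpB, atpF, psbI, psbE, psbF and psbK), against 21.3%. The 13 falls and the 1 rise on the deposited scale are therefore differences relative to the bulk of the probe sets on each array.

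**Figure D1:**
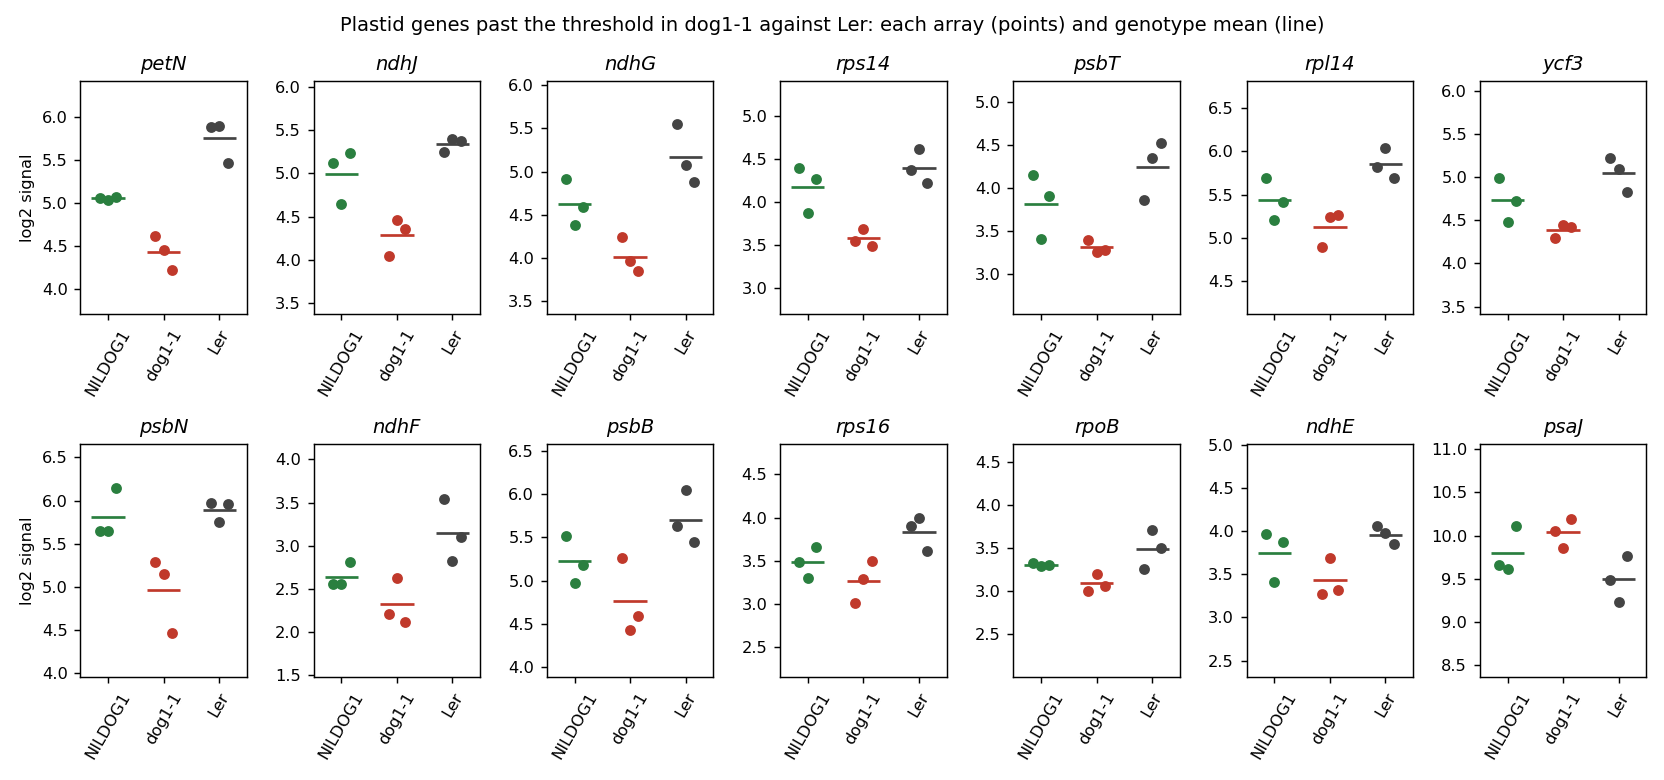
Signal of the 14 plastid genes that passed the threshold in dog1-1 against Ler, on each of the 9 arrays (log2 signal, with NILDOG1, dog1-1 and Ler from left to right; points are arrays and lines are means). For the 13 genes that fell, the dog1-1 points lie below the Ler points, and the NILDOG1 mean lies between both; for psaJ the order is turned round.

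Among the 6 subunits of the cytochrome b6f complex, which passes electrons from photosystem II to photosystem I, petN changed most. PetN is a small membrane subunit. Its log2 signal was 4.61, 4.45 and 4.23 on the dog1-1 arrays, against 5.88, 5.90 and 5.46 on the Ler arrays. All dog1-1 arrays were below all Ler arrays, with a gap wider than the spread within either genotype. The difference was -1.32 (SE 0.13, adjusted p = 3.56e-05), a signal 2.49-fold lower in dog1-1. The other 5 subunits did not pass: petG, a small subunit, differed by -0.34 (adjusted p = 0.136), petD, subunit IV, by -0.32 (adjusted p = 0.234), petB, cytochrome b6, by -0.10, petL by -0.10 and petA, cytochrome f, by -0.09. All 6 differences were negative on the deposited scale, where 58.9% of all probe sets were. On the hybridization control scale 1 was, that of petN.

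The NDH complex is a thylakoid complex that returns electrons from ferredoxin to plastoquinone in cyclic electron flow. Of its 10 plastid genes measured, 4 fell in dog1-1 (40%, against 5.28% of all probe sets). The median difference was -0.27, against -0.04 over all probe sets. On the hybridization control scale these medians were 0.09 and 0.31. For ndhG, a subunit of the membrane arm, the signals were 4.24, 3.96 and 3.85 in dog1-1 and 5.55, 5.08 and 4.88 in Ler. The arrays did not overlap, and the difference was -1.15 (SE 0.18, adjusted p = 9.36e-04). For ndhJ, a subunit of the stroma-facing arm, the signals were 4.04, 4.46 and 4.36 in dog1-1 and 5.25, 5.40 and 5.38 in Ler. These groups were again apart, by -1.06 (SE 0.16, adjusted p = 5.79e-04).

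The other falls in the NDH group were smaller or near background. The membrane subunit gene ndhF gave 2.21, 2.63 and 2.12 in dog1-1, against 3.54, 2.82 and 3.10 in Ler. Its dog1-1 mean of 2.32 was at background, so the difference of -0.83 (SE 0.18, adjusted p = 0.00813) may understate the fall. The error of that difference also leaves room for a smaller fall. On the hybridization control scale the ndhF difference was -0.48 and did not pass with limma (adjusted p = 0.0509). For ndhE, also of the membrane arm, the values were 3.27, 3.69 and 3.32 in dog1-1 and 4.05, 3.98 and 3.85 in Ler, a difference of -0.53 (SE 0.15, adjusted p = 0.0398). The groups did not overlap, but the ndhE call was lost when any of 6 single arrays was left out: Ler replicate 1, 2 or 3, dog1-1 replicate 1 or 3, or NILDOG1 replicate 3. Its adjusted p ran from 0.0171 to 0.412 over all settings. The 6 NDH genes that did not pass had differences from -0.27 for ndhH to 0.09 for ndhD.

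Of the 15 photosystem II genes, 3 fell (20%, against 5.28% of all probe sets), and the median difference of the 15 was -0.01. For psbB, which encodes the inner antenna protein CP47, the signals were 5.27, 4.42 and 4.59 in dog1-1 and 5.63, 6.04 and 5.44 in Ler. The nearest arrays of the genotypes, dog1-1 replicate 1 and Ler replicate 3, lay close together, and the difference was -0.95 (SE 0.22, adjusted p = 0.0127). Without Ler replicate 2, dog1-1 replicate 2 or dog1-1 replicate 3 in turn, psbB no longer passed, and its adjusted p ran from 4.29e-04 to 0.105 over all settings. For psbT, a small subunit, the signals were 3.40, 3.26 and 3.28 in dog1-1 and 3.86, 4.35 and 4.51 in Ler, a difference of -0.93 (SE 0.19, adjusted p = 0.00584). For psbN, whose product helps to assemble photosystem II in tobacco, the signals were 5.29, 5.15 and 4.47 in dog1-1 and 5.97, 5.75 and 5.96 in Ler. Both genes had dog1-1 arrays wholly below the Ler arrays, and for psbN the difference was -0.93 (SE 0.20, adjusted p = 0.0078).

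The remaining photosystem II genes did not pass. The core genes psbC, for the antenna protein CP43, and psbD, for the D2 protein, differed by -0.46 (adjusted p = 0.155) and -0.43 (adjusted p = 0.113). For psbA, which encodes the D1 protein, the signals were 10.6, 10.5 and 9.94 in dog1-1, against 10.3, 10.1 and 10.5 in Ler. These arrays overlapped, and the difference of 0.02 had a 95% interval from -0.34 to 0.39. At the other end of the group, psbI, a small subunit, differed by 0.30 (adjusted p = 0.129).

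Photosystem I held the single rise. For psaJ, a small membrane subunit, the signals were 10.1, 9.86 and 10.2 in dog1-1 and 9.49, 9.23 and 9.76 in Ler. The lowest dog1-1 array was above the highest Ler array by a narrow margin, and the difference was 0.55 (SE 0.16, adjusted p = 0.0439). That call was lost without Ler replicate 1 or 2, dog1-1 replicate 1 or 3, or NILDOG1 replicate 1 or 2, and the adjusted p of psaJ ran from 0.00152 to 0.256 over all settings. The reaction centre gene psaB differed by -0.03 and psaA by -0.25, with adjusted p-values of 0.964 and 0.641. For psaC, whose product holds the terminal iron-sulfur clusters, the signals were 5.25, 4.91 and 5.13 in dog1-1 and 5.42, 5.64 and 5.54 in Ler. They did not overlap, but the difference of -0.43 missed the threshold (adjusted p = 0.0529).

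Both plastid genes for photosystem I assembly were measured. For ycf3 the signals were 4.30, 4.45 and 4.42 in dog1-1 and 5.22, 5.10 and 4.83 in Ler. The groups were apart, and ycf3 fell by 0.66 on the log2 scale (SE 0.14, adjusted p = 0.00668). For ycf4 the difference was 0.0046 (adjusted p = 0.992), with a 95% interval from -0.45 to 0.46.

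Of the 15 ribosomal protein genes, 3 fell (20%, against 5.28% of all probe sets). Negative differences numbered 13 of the 15 (86.7%, against 58.9% of all probe sets), and 5 on the hybridization control scale. The median was -0.21 (0.14 on that scale). For rps14, of the small subunit, the signals were 3.55, 3.69 and 3.49 in dog1-1 and 4.37, 4.61 and 4.22 in Ler. For rpl14, of the large subunit, they were 4.89, 5.24 and 5.26 in dog1-1 and 5.81, 6.04 and 5.69 in Ler. The groups did not overlap in either case, with differences of -0.82 (SE 0.14, adjusted p = 0.00194) for rps14 and -0.72 (SE 0.15, adjusted p = 0.00592) for rpl14. The third was rps16, of the small subunit, at 3.01, 3.29 and 3.50 in dog1-1 and 3.90, 4.0 and 3.62 in Ler, a difference of -0.57 (SE 0.15, adjusted p = 0.0213). Its arrays were narrowly apart, and the rps16 call was lost without Ler replicate 1 or 2 or dog1-1 replicate 1 or 2, with adjusted p-values from 0.0113 to 0.342 over all settings. The 12 other ribosomal genes ran from -0.51 for rpl33 (adjusted p = 0.15) to 0.17 for rpl32 (adjusted p = 0.727).

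The plastid-encoded polymerase has 4 core genes, of which rpoB, for the beta subunit, passed. Its signals were 3.0, 3.20 and 3.07 in dog1-1 and 3.26, 3.71 and 3.50 in Ler. They did not overlap, and the difference was small at -0.40 (SE 0.12, adjusted p = 0.0395). It passed in 8 of 20 alternative settings and was lost without any single array other than Ler replicate 1 or dog1-1 replicate 2, with adjusted p-values from 0.00785 to 0.824. The genes rpoA, for the alpha subunit, rpoC2 and rpoC1 differed by -0.32, -0.16 and 0.06, with adjusted p-values of 0.162, 0.503 and 0.884.

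None of the 6 ATP synthase genes and none of the 6 genes of other function passed in dog1-1 on the deposited scale. The ATP synthase makes ATP from the proton gradient across the thylakoid, and the median of its genes was 0.22 (0.58 on the hybridization control scale). On the hybridization control scale atpA (0.91), atpB (0.69) and atpF (0.56) passed as higher, where 21.3% of all probe sets did. The largest difference on the deposited scale was in atpA, the alpha subunit. The signals of atpA were 9.03, 8.45 and 8.83 in dog1-1 and 7.51, 8.54 and 8.57 in Ler. Ler replicate 1 lay about 1 unit below the other Ler arrays, the groups overlapped, and the difference of 0.56 did not pass (adjusted p = 0.21). The largest difference among the other genes was in ccsA, which helps to attach haem to c-type cytochromes, at 6.34, 6.88 and 6.55 in dog1-1 and 7.46, 7.08 and 6.85 in Ler. The ccsA groups overlapped slightly, and the difference was -0.54 (adjusted p = 0.0737). For rbcL, the large subunit of Rubisco, all dog1-1 signals (6.37, 6.02 and 6.18) were below all Ler signals (6.60, 6.52 and 6.65), but the difference of -0.40 did not pass (adjusted p = 0.0955). The protease gene clpP differed by 0.11, the splicing maturase gene matK by 0.12 and accD, a subunit of acetyl-CoA carboxylase, by -0.19, none of which passed.

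**Figure D2:**
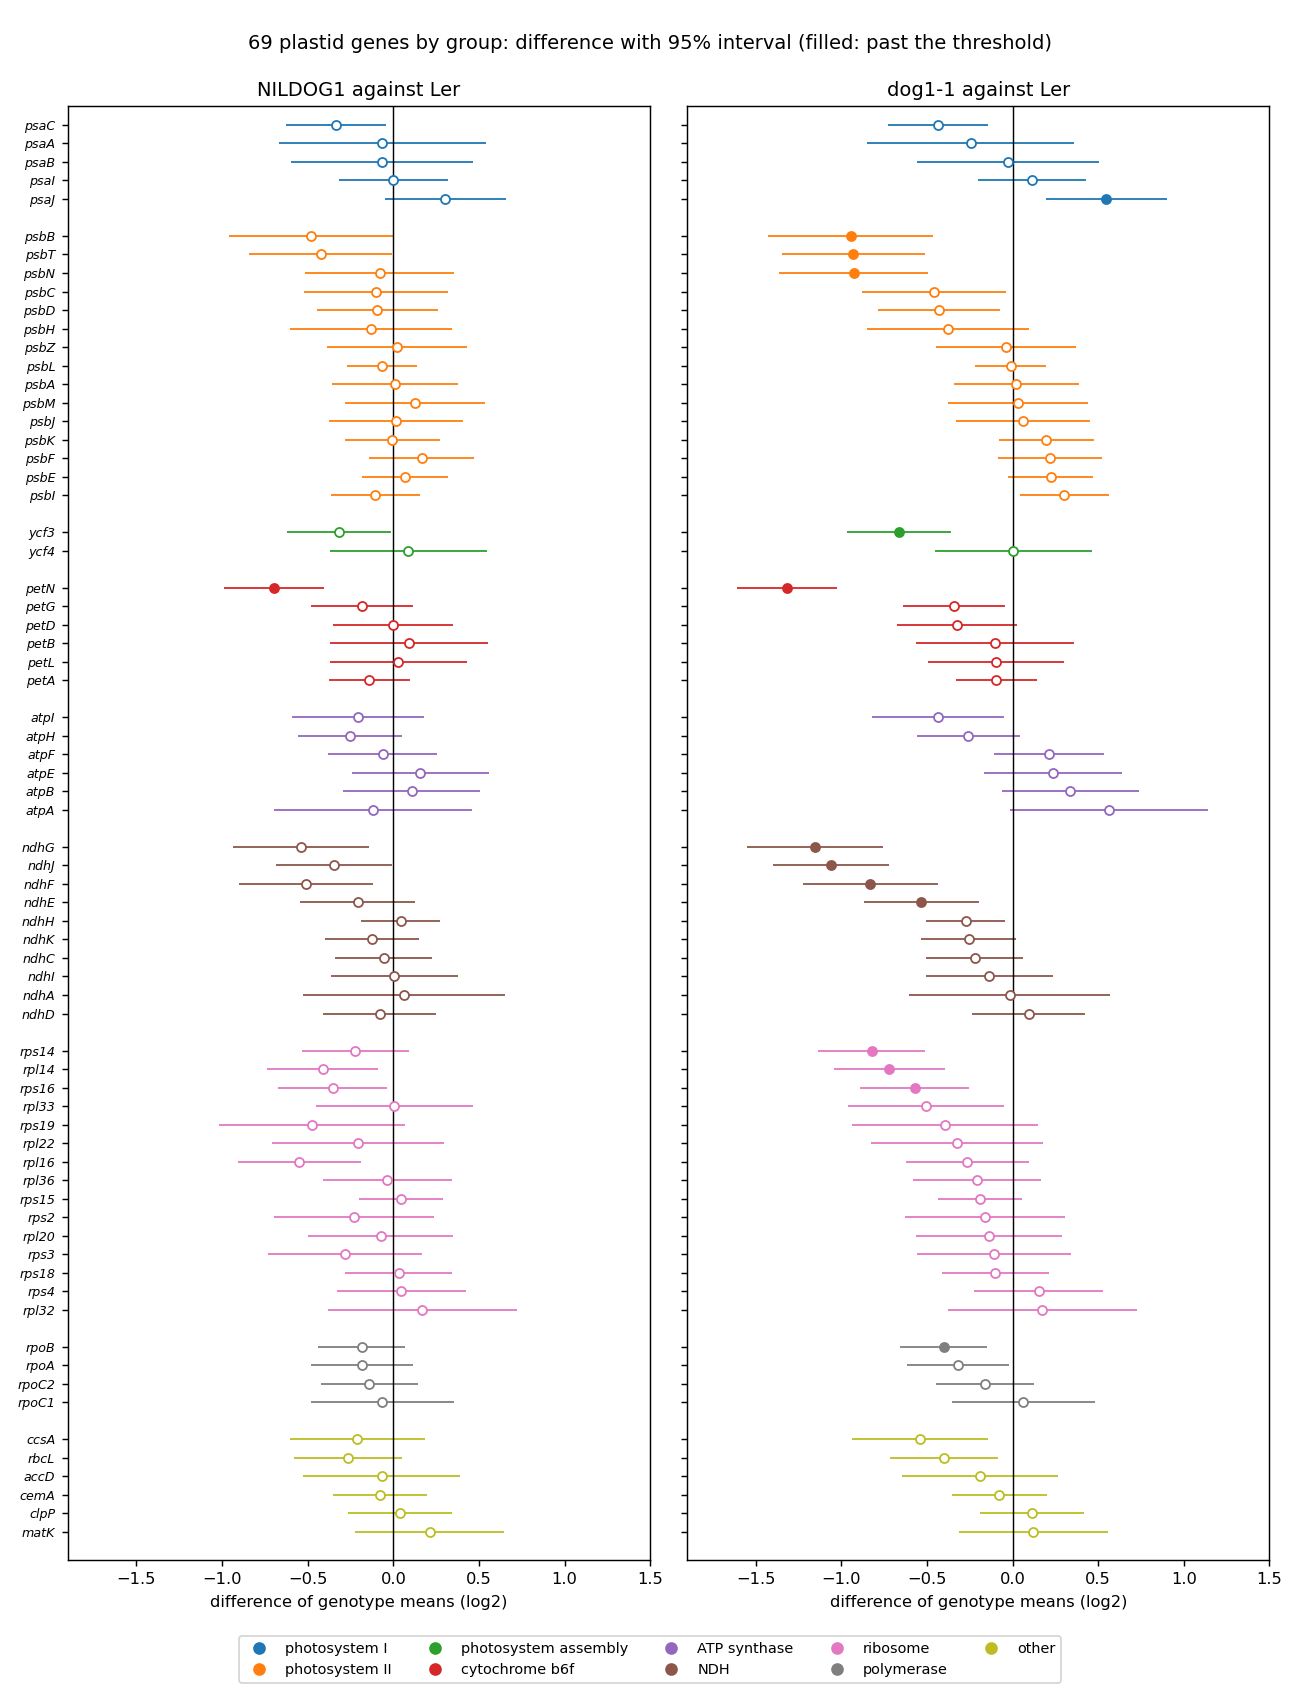
Log2 difference of each of the 69 plastid genes by functional group, with its 95% interval, in NILDOG1 against Ler on the left and dog1-1 against Ler on the right; filled points mark genes past the threshold. In dog1-1 against Ler the NDH group has 4 of 10 genes past the threshold on the lower side, where 5.28% of all probe sets are. The ATP synthase group has none on the deposited scale shown, while atpA, atpB and atpF pass as higher on the hybridization control scale. In NILDOG1 against Ler petN alone passes.

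All 13 genes that fell in dog1-1 were of low probe set signal. Their mean signals over the 9 arrays ran from 2.71 for ndhF to 5.56 for psbN. When the 69 genes were divided at their median signal of 6.41, the 34 dimmer ones had 32 negative differences, 13 falls and no rise, with a median of -0.37. The 35 brighter ones had 17 negative differences, no fall and 1 rise, with a median of 0.02. Probe sets of the whole array at the dimmer signals, 11951 in number, had a median of -0.03, with 4.48% lower and 10.2% higher. Those at the brighter signals, 4956 in number, had a median of -0.02, with 11.8% lower and 12.3% higher.

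Across the 69 genes, mean signal and the dog1-1 difference had a Pearson correlation of 0.63 and a Spearman correlation of 0.71, against 0.04 and 0.09 over all probe sets. These genes share the same arrays and many share a transcript, so they are not independent and no p is given. The division at the median signal was chosen after the data were seen. It kept its direction without Ler replicate 1, where 33 of 34 dimmer and 27 of 35 brighter genes were negative, with medians of -0.40 and -0.18. There 11 dimmer and 2 brighter genes passed as lower, where 4.70% of all probe sets did, and the Pearson correlation was 0.53. The direction also held without both arrays of low 25S RNA, with 33 of 34 and 25 of 35 and medians of -0.41 and -0.14. In that fit 8 dimmer genes and 1 brighter gene passed as lower, where 3.31% of all probe sets did, with a correlation of 0.52. The lack of falls among the brighter genes thus did not hold in either fit. With the hybridization controls as the scale, 17 of the 34 dimmer genes and 5 of the 35 brighter ones were negative. On that scale 5 of the dimmer genes passed as lower and 1 as higher. Of the brighter genes 0 passed as lower and 7 as higher. Among all probe sets 1.43% then passed as lower and 21.3% as higher. Whether the signal of a probe set follows the amount of its RNA or how well that RNA was primed and bound was not tested.

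**Figure D3:**
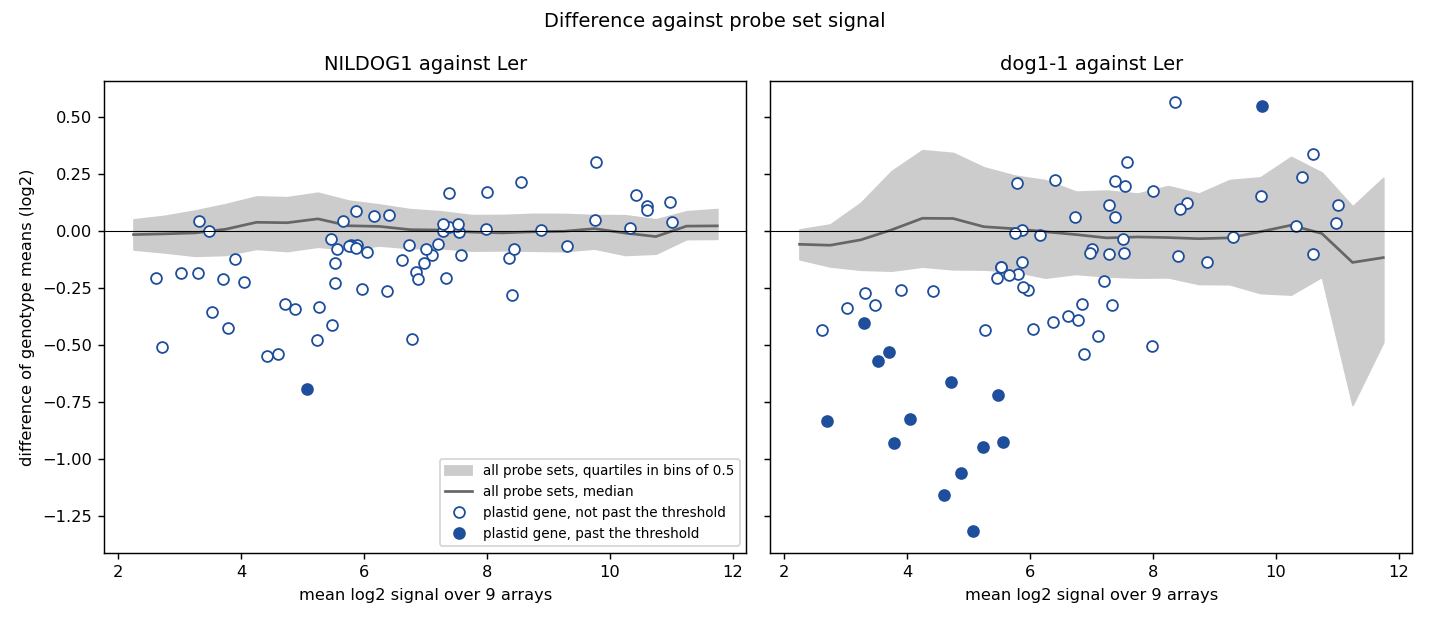
Log2 difference against mean log2 signal for the 69 plastid genes, with the median (line) and quartiles (band) of all probe sets in steps of signal; NILDOG1 against Ler is on the left and dog1-1 against Ler on the right. On the deposited scale shown, the plastid genes dimmer than 6.41 lie mostly below 0 in dog1-1 against Ler, with a median of -0.37 (-0.02 on the hybridization control scale), and the brighter ones lie around 0, with a median of 0.02 (0.38 on that scale).

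Some of the genes that fell are neighbours in the order of the protein-coding plastid genes. In that order, taken from the gene table, genes of other types were left out and strand was not used. There 7 of the 13 stand next to another gene that fell. The pairs are rpoB and petN, psbB and psbT, psbT and psbN, and ndhE and ndhG, and a pair need not share a transcript. The genes psbB, psbT, psbH, petB and petD are transcribed together, and psbN lies among them on the opposite strand. The first and second of these fell, while psbH (-0.37, adjusted p = 0.319), petB (-0.10, adjusted p = 0.817) and petD (-0.32, adjusted p = 0.234) did not pass. Genes cotranscribed with ndhJ differed by less: ndhK stood at -0.26 (adjusted p = 0.232) and ndhC at -0.22 (adjusted p = 0.323). Between rps14 and ycf3, which both fell, lie psaB (-0.03) and psaA (-0.25), which did not pass. Genes read in 1 transcript are not independent of each other, and no test of the clustering was made.

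**Figure D4:**
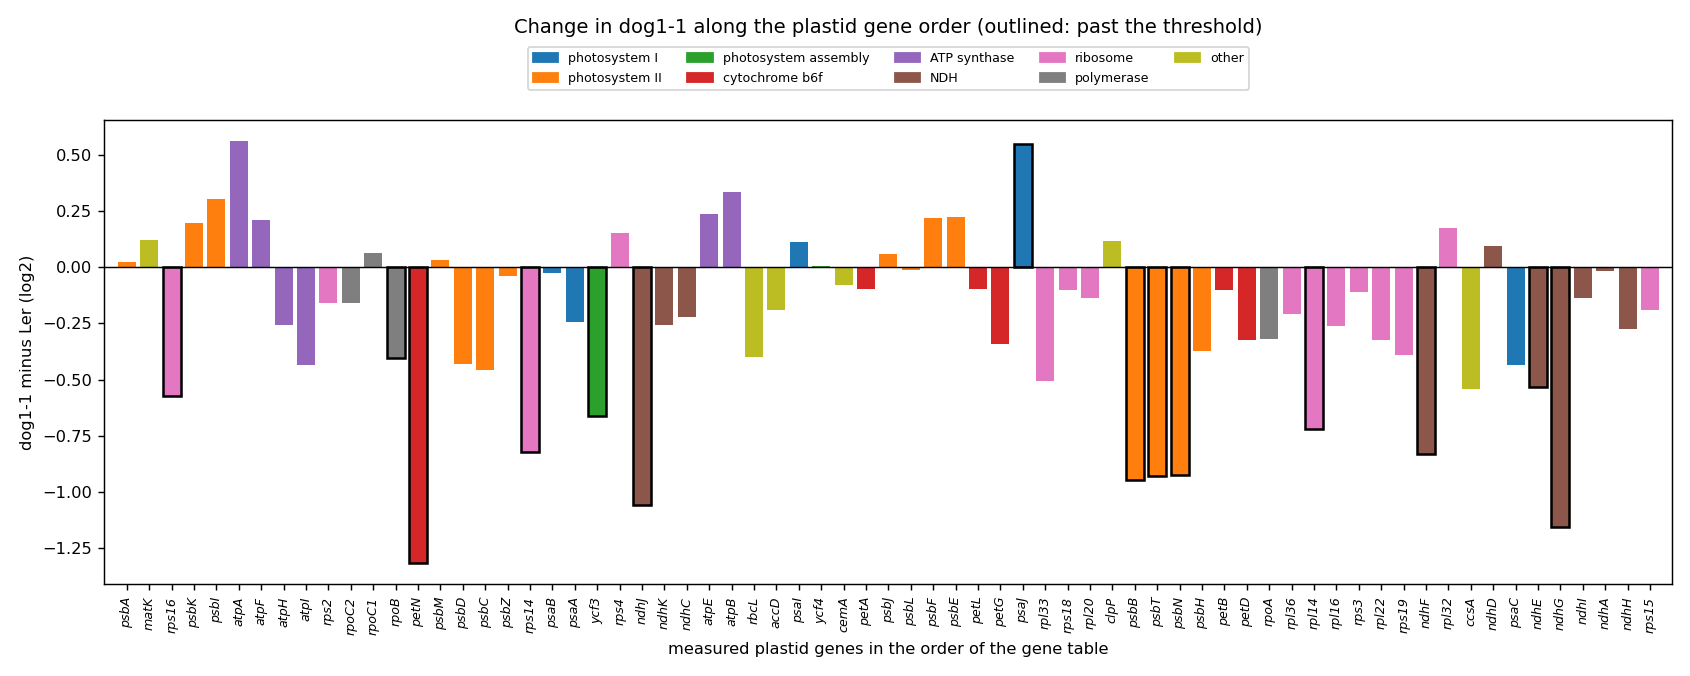
Log2 difference of the 69 plastid genes in their order along the plastid genome in the gene table, by rank and not by distance, in dog1-1 against Ler. Genes past the threshold are marked, and 7 of the 13 that fell stand next to another that fell, with only protein-coding genes counted.

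The comparison of NILDOG1 with Ler asks what differs in seeds with a stronger DOG1 allele. Of the 69 plastid genes, 1 passed, petN, which was lower in NILDOG1. This is 1.45% of the plastid genes, where 0.545% of all probe sets passed, 0.224% on the lower side and 0.321% on the higher. The signals of petN were 5.05, 5.04 and 5.07 in NILDOG1 and 5.88, 5.90 and 5.46 in Ler. The NILDOG1 arrays lay close together and below all Ler arrays, and the difference was -0.69 (SE 0.13, adjusted p = 0.0449), or 1.62-fold. The petN call held in 9 of 20 alternative settings and was lost without any single array other than Ler replicate 3 or dog1-1 replicate 1 or 3, with adjusted p-values from 0.0141 to 0.283.

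The other 68 plastid genes did not pass in NILDOG1. Their median difference together with petN was -0.08, against -0.0018 over all probe sets, and 46 of 69 were negative (66.7%, against 50.5% of all probe sets; 24 of 69 on the hybridization control scale). Arrays did not overlap for 4 genes, petN, ndhF, ndhJ and psaC, all lower, which is 5.80% of the plastid genes. Of all probe sets, 9.32% did not overlap in either direction and 4.47% on the lower side. Next in size after petN were rpl16, a ribosomal protein of the large subunit, at -0.55 (adjusted p = 0.411), ndhG at -0.54 (adjusted p = 0.525) and ndhF at -0.51 (adjusted p = 0.561). For ndhG the signals were 4.92, 4.38 and 4.59 in NILDOG1 and 5.55, 5.08 and 4.88 in Ler, which overlapped only at the edge. The dimmer genes were negative in 30 of 34 cases, with a median of -0.20, and the brighter ones in 16 of 35, with a median of 0.0053. Without Ler replicate 1 the contrast was smaller: 33 of 34 dimmer genes were negative, with a median of -0.25, and 30 of 35 brighter ones, with a median of -0.15. The correlation of the differences with signal was then 0.28, against 0.58 with all arrays. Scaling on the hybridization controls moved the plastid median to 0.09 and that of all probe sets to 0.17, and then 0 of the 69 genes passed with limma, where 0.668% of all probe sets did. On the deposited scale 10 of the 69 (14.5%) had an unadjusted p under 0.05, against 5.9% of all probe sets.

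Set directly against dog1-1, NILDOG1 had higher signals for 5 plastid genes and a lower one for 1. The 6 are 8.70% of the plastid genes, where 12.5% of all probe sets passed; the 5 rises are 7.25%, against 4.94% of all probe sets, and the 1 fall is 1.45%, against 7.52%. For ndhJ the signals were 5.12, 4.64 and 5.24 in NILDOG1 and 4.04, 4.46 and 4.36 in dog1-1. All NILDOG1 arrays were higher, by 0.71 (SE 0.16, adjusted p = 0.00869). For psbN they were 5.65, 5.65 and 6.15 in NILDOG1 and 5.29, 5.15 and 4.47 in dog1-1. These also stood apart, by 0.85 (SE 0.20, adjusted p = 0.0139), though the call was lost without NILDOG1 replicate 3, and adjusted p-values ran from 0.00163 to 0.0675 over all settings. The differences of petN, 0.62 (adjusted p = 0.00823), rps14, 0.60 (adjusted p = 0.0152), and ndhG, 0.61 (adjusted p = 0.0458), passed too.

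The one photosystem II gene lower in NILDOG1 than in dog1-1 was psbI. Its signals were 7.39, 7.45 and 7.40 in NILDOG1 and 7.91, 7.63 and 7.93 in dog1-1. The groups did not overlap, and the difference was -0.41 (SE 0.12, adjusted p = 0.0436), lost without Ler replicate 2, dog1-1 replicate 1 or 3, or any single NILDOG1 array, with adjusted p-values from 0.0214 to 0.162. The rps14 call was lost without dog1-1 replicate 3, NILDOG1 replicate 1 or NILDOG1 replicate 3. The ndhG call was lost without Ler replicate 2, dog1-1 replicate 2 or 3, or NILDOG1 replicate 1 or 3. Adjusted p-values over all settings ran from 0.00403 to 0.184 for rps14 and from 0.0057 to 0.184 for ndhG. Arrays did not overlap for 9 genes higher and 1 lower in NILDOG1, where 27% of all probe sets had no overlap in either direction. The median of the 69 differences was 0.12, against 0.04 over all probe sets. On the hybridization control scale the plastid median was -0.07 and that of all probe sets -0.15, and 1 gene (psbN) passed as higher and 2 (psbI and atpA) as lower, where 11% of all probe sets passed.

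The 3 comparisons share arrays, so their values are given side by side without a test of their likeness. For all 13 genes that fell in dog1-1, the NILDOG1 mean lay between the dog1-1 mean and the Ler mean. These genes were picked for a wide gap between those means, which favours such a position; it held for 29 of the 55 genes that did not pass and for 43 of all 69. Over the 13 genes the median difference was -0.83 in dog1-1 against Ler, -0.35 in NILDOG1 against Ler and 0.47 in NILDOG1 against dog1-1. The position of NILDOG1 between the others varied by gene. For petN it stood -0.69 from Ler and 0.62 from dog1-1, about midway, while psbN stood -0.08 from Ler and 0.85 from dog1-1. For psaJ, which rose in dog1-1, NILDOG1 arrays were at 9.66, 9.61 and 10.1, between both other means.

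Genes of the other genomes of the cell were set beside the plastid genes. All 11 mitochondrial genes with a named probe set were measured, and with limma 0 of 11 passed in any of the 3 comparisons. Of all probe sets, 13.6% passed in dog1-1 against Ler, 0.545% in NILDOG1 against Ler and 12.5% in NILDOG1 against dog1-1. In dog1-1 against Ler the mitochondrial median was -0.27, against -0.19 for the plastid genes and -0.04 over all probe sets. There 5 of the 11 (45.5%) had an unadjusted p under 0.05, where 25 of the 69 plastid genes (36.2%) and 25.6% of all probe sets did. The lowest mitochondrial difference was that of nad4, a subunit of respiratory complex I, at -0.53 (adjusted p = 0.0656), while matR, a maturase, stood at 0.62 (adjusted p = 0.0939).

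Nuclear genes for subunits of the same plastid complexes were thinly covered, with 8 of 35 measured. Of these, 1 rose in dog1-1 (12.5%, against 8.33% of all probe sets), 0 fell (against 5.28%) and 7 did not pass. It was PETM, a small subunit of cytochrome b6f, at 4.93, 5.68 and 5.48 in dog1-1 and 3.96, 3.75 and 4.0 in Ler. The groups were far apart, by 1.46 (SE 0.22, adjusted p = 6.87e-04), so within the same complex the plastid gene petN fell and the nuclear gene PETM rose. In NILDOG1 against Ler 0 of the 8 passed with limma (0.545% of all probe sets), and 0 had an unadjusted p under 0.05 (5.9% of all). In NILDOG1 against dog1-1, 3 of the 8 fell (37.5%, against 7.52% of all probe sets). They were PETM, by 1.23, PSBW, of photosystem II, by 0.66 and PSAN, of photosystem I, by 0.44 on the log2 scale. The NILDOG1 mean of PSAN (2.39) was at background, so its 0.44 (SE 0.11) may understate the fall, though the error also leaves room for a smaller one. Of the nuclear polymerases and sigma factors for plastid transcription, 1 of 8 was measured: RPOTmp, a phage-type polymerase, differed by 0.06 in dog1-1 against Ler and did not pass. The lists of polymerase-associated proteins and of nuclear genes for plastid ribosomal proteins had no named probe set and were not analysed here.

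Markers of green tissue and of other seed parts were measured on the same arrays. Of the green tissue markers, 3 of 5 had a probe set. In dog1-1 the gene for Rubisco activase (RCA) rose by 1.52 and LHCB4.2, an antenna protein, rose by 0.50, while LHCB4.1, another antenna protein, fell by 0.62 on the log2 scale. None of the 3 passed in NILDOG1 against Ler. Of the seed coat markers 2 of 4 were measured and neither passed in dog1-1. Of the endosperm markers 2 of 3 were measured: IKU2 fell by 0.42 in dog1-1 and AGL62 was at background. The part of these differences in the plastid results was not tested.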

How the data were processed

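RNA from dry seeds of 3 genotypes was hybridized to 9 Affymetrix arrays after labelling with a one-cycle 3' kit, per the labels' protocols. The deposited values are log2 signals. RMA was used to normalize them, per the submitters' processing notes. The log base was read from the values, and no source used here names the RMA version or the chip definition. The table holds no detection calls. Members were matched through the Entrez identifier of the array annotation to a RefSeq gene table (assembly TAIR10.1), used for names and gene order only; the 11 mitochondrial genes were matched by symbol. In R 4.3.3, limma 3.58.1 (lmFit, eBayes with a constant prior) fitted genotype to all 9 arrays with 6 residual degrees of freedom, without 64 control probe sets, and p-values were adjusted over 22746. No array was dropped and no value imputed. The script was tested on simulated data.

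Genes named with full values were those past the threshold and, in dog1-1 against Ler, the largest difference of each group with none past it; others were named after their values were seen. Members, lists and tests were chosen with earlier results of these data known. Over all probe sets the replicate numbers did not pair the arrays: correlations of same-numbered arrays after removal of genotype means ran from -0.231 to 0.0299, with 0 of 9 over 0.1. Over the plastid genes they ran from -0.375 to 0.14, with 2 of 9 over 0.1, against 6 of 18 for arrays of other numbers. The growth description mentions blocks, but the labels tie no replicate number to a block. The alternatives were other priors, other scalings, a filter on dim probe sets, a replicate block, fits of 2 genotypes alone, probe sets of shared sequence left out, and each array left out. Leaving out both arrays of low 25S RNA was among them, and centring on the plastid median was added after the data were seen.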

Additional observations from a re-analysis of the deposited data

How the results depend on the processing

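In dog1-1 against Ler, petN, ndhJ and ndhG passed in all 20 alternative settings, and rps14, psbT and rpl14 in 19, lost with the hybridization controls as the scale. The genes that passed, atpA and ccsA kept their sign in all 20, but others did not: on the hybridization control scale 27 of the 69 genes changed sign in dog1-1 against Ler, 22 in NILDOG1 against Ler and 21 in NILDOG1 against dog1-1. Without both arrays of low 25S RNA, 9 plastid genes passed, all lower and 8 of them among the 14, where 8.71% of all probe sets passed. With single arrays left out the count ran from 9 to 14, lowest without Ler replicate 2. The share of all probe sets passing ran from 9.59% to 13.4%, at 11.4% without Ler replicate 2, against 13.6% with all arrays. The median difference of the plastid genes ran from -0.33 to -0.11. On the hybridization control scale the median was 0.16. In NILDOG1 against Ler the count was 0 with a trend prior, on the hybridization control scale, with only the arrays of those genotypes, without both arrays of low 25S RNA and with centring on the plastid median (added after the data were seen). It was 0 to 1 with single arrays left out, and the median was -0.20 to -0.0053, or 0.0904 on the hybridization control scale. In NILDOG1 against dog1-1 the count was 3 on the hybridization control scale, where 11% of all probe sets passed (12.5% on the deposited scale). The count was 2 without both arrays of low 25S RNA and 3 with centring on the plastid median. With single arrays left out it ran from 2, without NILDOG1 replicate 3, to 7, and was 3 without dog1-1 replicate 3; the median ran from 0.0045 to 0.20, and was -0.0679 on the hybridization control scale. The cause of these shifts was not tested, beyond the smaller number of arrays. In both NILDOG1 comparisons the share of all probe sets passing is given only for the deposited and hybridization control scales. In the other settings a shift of their plastid counts cannot be told apart from a general shift in calls. Over all probe sets the replicate numbers did not pair the arrays. With the replicate number as a block, 14 plastid genes passed in dog1-1 against Ler, where 12.3% of all probe sets did. Of these genes, 13 were among the first 14 (without ndhE). With that block 1 plastid gene passed in NILDOG1 against Ler and 5 in NILDOG1 against dog1-1, again without the share of all probe sets. The number of arrays, and for ndhF and atpI a signal at background in dog1-1, limit the precision, and the probe set signals do not compare the amounts of different genes.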

Other observations

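The 8 probe sets listed with both inverted repeat copies of a gene, which cover rps12 with 2 probe sets and rpl2, rpl23, ycf2, ndhB, rps7 and ycf1 with 1 each, were fitted in the same way. In dog1-1 against Ler 2 of the 8 passed, ndhB and ycf2, both lower. Of all probe sets, 13.6% passed, 5.28% on the lower side. How these 2 calls fared in the alternative settings is not given here. For ndhB, a membrane subunit of the NDH complex, the log2 signals were 4.08, 3.94 and 4.04 in dog1-1, against 4.73, 5.09 and 5.05 in Ler. The groups did not overlap, and ndhB fell by 0.94 (SE 0.11, adjusted p = 1.28e-04), or 1.91-fold. For ycf2, a large open reading frame whose product takes part in protein import, the signals were 3.37, 3.49 and 3.49 in dog1-1, against 3.79, 4.49 and 4.12 in Ler. These were also apart, with a difference of -0.68 (SE 0.15, adjusted p = 0.0112). With these probe sets added, after the data were seen, 16 plastid probe sets passed in dog1-1 against Ler, 15 of them lower.

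In NILDOG1 the ndhB and ycf2 probe sets stood near Ler. The ndhB signals were 4.77, 4.86 and 4.95 in NILDOG1, a difference of -0.10 from Ler that did not pass (adjusted p = 0.956) and a rise of 0.84 over dog1-1 (SE 0.11, adjusted p = 2.89e-04). For ycf2 the difference was -0.09 from Ler (adjusted p = 0.975), which did not pass, and a rise of 0.59 over dog1-1 (SE 0.15, adjusted p = 0.0268). Of the 6 other probe sets, none passed in any of the 3 comparisons with limma. The rpl2 probe set had an unadjusted p of 0.0454 in dog1-1 against Ler, and its difference there was -0.42 (adjusted p = 0.184). In NILDOG1 rpl2 stood -0.37 from Ler (adjusted p = 0.913) and 0.06 from dog1-1 (adjusted p = 0.91).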
